A study of Homo sapiens with 3 samples.

Results

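The expression of 40 genes of DNA repair and the DNA damage checkpoint was measured in KYSE510 cells, a long-established line grown from a human squamous carcinoma of the esophagus. The members were chosen by symbol, from textbook pathways, with earlier results of these data known. They cover homologous recombination (10 genes), the Fanconi anemia pathway (6), mismatch repair (3) and the sensors of DNA breaks with 53BP1 (4). Others are the checkpoint kinases (4) and genes of end joining (4) and of base excision and single-strand break repair (6). The rest belong to nucleotide excision repair (2) and postreplication repair (1). All 40 were found among the 19266 genes of the tables, and all 40 passed the filter on low counts that left 13580 genes for testing. The control cells received lentivirus with a scrambled short hairpin RNA, and the other groups received hairpin 1 (sh1) or hairpin 2 (sh2) against the transcript TCONS_02256997. Virus was left on for 24 h in all 3 groups, and 4 µM puromycin, which kills cells without the vector, followed for 48 h. The study aimed to screen for targets of the transcript, whose own level was not analysed here. Each group had 1 sample, deposited as 3 numbered tables that were treated as 3 libraries (n = 3).

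Cells repair different kinds of DNA damage by different routes. Breaks through both strands are held by the complex of RAD50, MRE11 and NBN and signalled by the kinase ATM, and they are rejoined directly by end joining or copied from the sister chromatid by homologous recombination. The Fanconi anemia proteins unhook crosslinks between strands, mismatch repair corrects copying errors behind the replication fork, base excision removes small damaged bases, and nucleotide excision removes bulky lesions. Many genes of homologous recombination, crosslink repair and mismatch repair are transcribed mainly in S phase, and squamous carcinomas of the esophagus proliferate with frequent loss of checkpoint control.

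The expected counts of a library summed to 15012961 to 15414591 for control, 14660821 to 14770512 for sh1 and 15759270 to 16092417 for sh2. Members had between 158 (OGG1) and 13627 (PRKDC) expected counts per library. Levels are given as CPM (counts relative to the library's TMM-scaled total) within a gene and as TPM (scaled to transcript length as well) between genes. All 12 squamous markers were tested. Their summed level was 8549 to 8636 TPM in control, 5088 to 5170 with sh1 and 6983 to 7164 with sh2. Against control, 9 of the 12 fell and 1 rose with sh1, and 8 fell and 2 rose with sh2 (medians -0.62 and -0.34 on the log2 scale). Summed fibroblast markers (1 of 8 tested) lay at 20.2 to 21.5, 21.5 to 24.7 and 26.7 to 28.2 TPM in control, sh1 and sh2. Summed endothelial markers (3 of 5 tested) lay at 6.39 to 7.25, 7.49 to 10.7 and 7.78 to 8.93 TPM. Summed blood cell markers (4 of 7 tested, HBB among those at 0 in every library) lay at 114 to 122, 173 to 179 and 157 to 178 TPM. Among them, CD68 was at 78.2, 124 and 118 CPM and CD14 at 1.01, 0.837 and 1.82 CPM. Whether any marker RNA came from cells other than KYSE510 was not tested. The part of these marker differences in the results on repair genes was not tested. In such bulk samples, fewer cells of a type and less RNA per cell cannot be told apart.

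Few of the 40 members moved far with either hairpin. With sh1, 17 of the 40 members rose and 9 fell, against 34.7% and 34.6% of all tested genes (edgeR's quasi-likelihood test, Benjamini-Hochberg adjusted p below 0.05). With sh2, 24 rose and 7 fell, against 34.2% and 34.3% of all genes. In either direction, 65% of the members were called with sh1 and 77.5% with sh2, against 69.3% and 68.5% of all genes. At a change of 1.5-fold or more there were 2 members with sh1, FANCA upward and ERCC2 downward, where 24.1% of all genes passed, and 1 with sh2, RAD51C upward, where 22.2% passed. The median log2 fold change over the members was 0.03 with sh1 and 0.16 with sh2, and over all tested genes 0.01 and 0.00. Its median size without sign was 0.22 for the members with either hairpin, against 0.32 and 0.30 for all genes. Among the 9399 genes within the members' range of mean level (12.4 to 822 CPM), 21.3% and 18.8% passed at 1.5-fold, and the median sizes were 0.29 and 0.27. Of these 9399 genes, 38.5% rose and 40.4% fell with sh1, and 38.9% rose and 38.7% fell with sh2, so that 79% and 77.6% were called in all. Libraries of sh1 and control did not overlap for 27 members (67.5%, against 71.9% of all tested genes and 80.4% at the members' level), and those of sh2 and control for 31 (77.5%, against 70.3% and 78.3%). Both comparisons used the same control libraries. Pathway counts below rest on few members, from 1 to 10, and are to be read against these shares of all genes. In what follows, a change of a gene is a log2 fold change against control ± SE, with the value for sh1 before that for sh2, and a difference between the hairpins is sh1 minus sh2 on the same scale.

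Sh1 and sh2 were also set against each other, which tests the difference between them directly. With sh1, 12 members were higher and 19 lower than with sh2, against 34.2% and 35.6% of all genes. At 1.5-fold there were 5 members, where 23.3% of all genes and 20.1% of those at the members' level passed. BLM and FANCA were higher with sh1, and RAD50, MUTYH and LIG4 were lower. The median over the members was -0.09, with a range of -0.87 to 0.64, and the libraries of the hairpins did not overlap for 32 members (80%, against 71.9% of all genes and 80.2% at the members' level). Leaving aside the sums with overlapping genes described further on, 23 of the 26 sh1 calls, 24 of the 31 sh2 calls and 28 of the 31 between hairpins kept their direction and stayed called under every other setting.

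**Figure D1:**
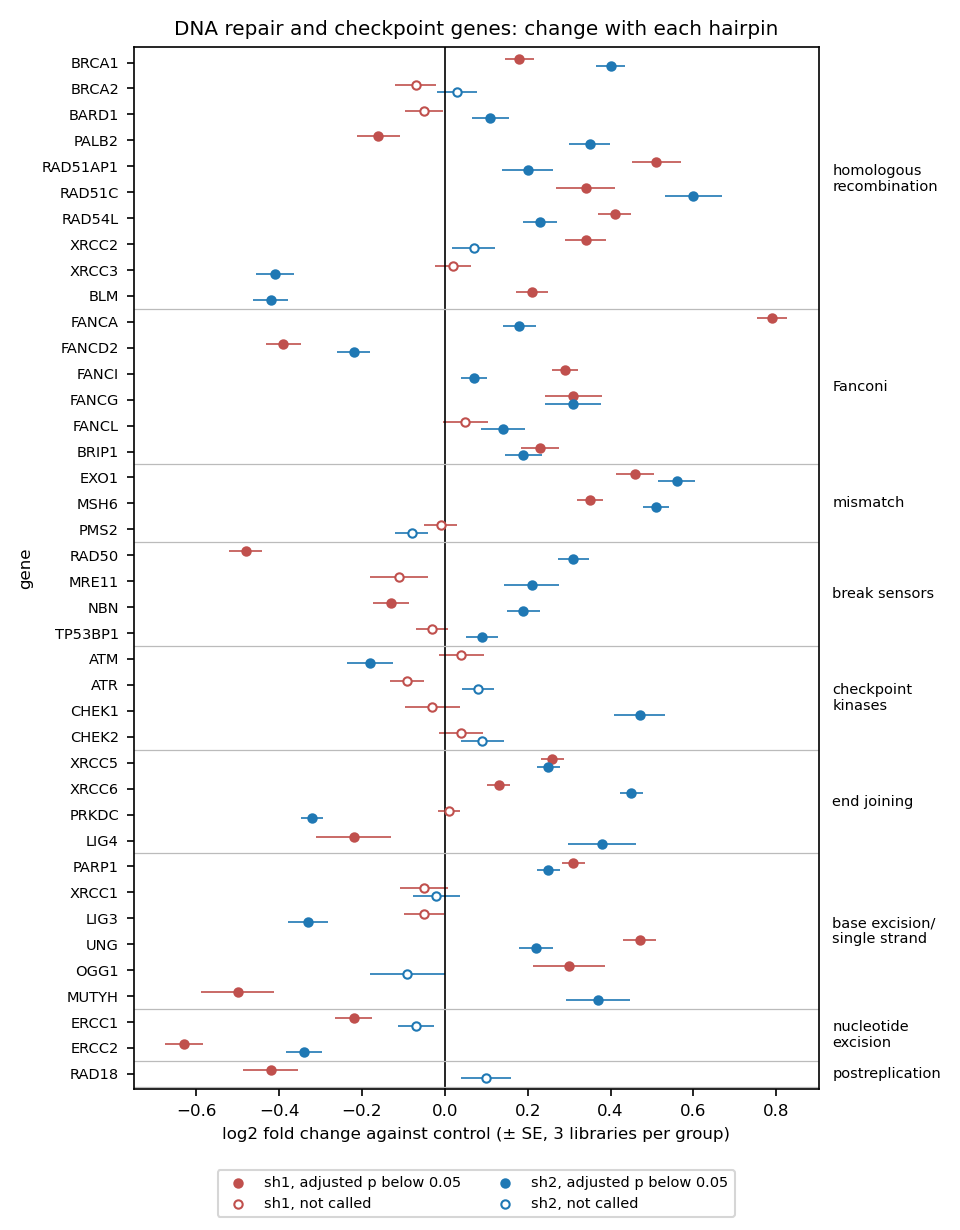
Log2 fold change against control of each of the 40 members, with its standard error, for sh1 (red) and sh2 (blue) with 3 libraries per group; filled points have an adjusted p below 0.05, and lines separate the pathways. FANCA with sh1 lies farthest to the right (0.79) and ERCC2 with sh1 farthest to the left (-0.63). RAD50, NBN, MUTYH, LIG4, PALB2 and BLM have filled points on opposite sides of 0 for the hairpins. Other members with points on both sides of 0, such as RAD18, have a point that was not called.

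In homologous recombination, 6 of the 10 members rose with each hairpin, while 1 fell with sh1 and 2 with sh2 (medians 0.20 and 0.16). RAD51C, a mediator of homologous recombination, stood at 15.7, 14.6 and 14.8 CPM across the control libraries, at 18.5, 19.8 and 18.7 under sh1 and at 22.3, 23.2 and 22.6 under sh2. The 3 groups did not overlap, and sh2 was the highest. Its log2 fold change was 0.34 ± 0.072 (SE) with sh1 (adjusted p = 0.000131) and 0.60 ± 0.068 with sh2 (adjusted p = 6.33e-09). The sh2 value lies close to the 1.5-fold limit (0.58 in log2), and it was 0.57 without control library 2. RAD51AP1, which stimulates strand pairing, rose by 0.51 ± 0.059 under sh1 and, under sh2, by 0.20 ± 0.061 (adjusted p = 0.0051, and 0.0533 without sh2 library 1). RAD54L, a motor protein that remodels the paired strands, rose by 0.41 ± 0.04 and 0.23 ± 0.04. XRCC2, another recombination mediator, rose by 0.34 ± 0.05 with sh1 and had 0.07 ± 0.052 with sh2 (adjusted p = 0.254), and the difference between the hairpins was 0.28 ± 0.05 (adjusted p = 1.36e-05).

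Of the BRCA genes, BRCA1 rose with both hairpins and BRCA2 with neither. BRCA1, which directs breaks to recombination, was at 91.2 ± 1.29 CPM (SD, n = 3) in control and rose to 103 ± 1.55 in sh1 and 120 ± 2.11 in sh2 cells, log2 changes of 0.18 ± 0.035 and 0.40 ± 0.034. BARD1, its partner in the ubiquitin ligase, had -0.05 ± 0.045 with sh1 (not called) and 0.11 ± 0.044 with sh2 (adjusted p = 0.0219, and 0.131 with DESeq2). The ratio of BRCA1 to BARD1 in TPM was 1.42 ± 0.0149 in control, 1.65 ± 0.0839 with sh1 and 1.72 ± 0.135 with sh2, and neither hairpin's libraries overlapped control. BRCA2, which acts in strand exchange, was at 45.7 ± 2.00, 43.4 ± 1.9 and 46.5 ± 1.82 CPM, and it was called in none of the 3 comparisons. PALB2, the bridge between BRCA1 and BRCA2, fell by 0.16 ± 0.053 with sh1 and rose by 0.35 ± 0.049 with sh2. The fall was not called with upper-quartile scaling (adjusted p = 0.0529).

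BLM and XRCC3 separated the hairpins in the other direction. BLM, the Bloom syndrome helicase, stood at 80.5, 74.3 and 81.5 CPM in control libraries, at 91.8, 92.9 and 89.5 in sh1 libraries and at 59.9, 58.4 and 58.2 in sh2 libraries. Every sh1 library was above control and every sh2 library below it. The log2 fold changes were 0.21 ± 0.039 (adjusted p = 1.74e-05) and -0.42 ± 0.042 (adjusted p = 2.85e-10), and the difference between the hairpins was 0.64 ± 0.041. XRCC3, also a recombination mediator, had 0.02 ± 0.044 with sh1 (not called) and fell by 0.41 ± 0.045 with sh2, although its sum with the overlapping gene KLC1 had 0.17. Of 32 other tested genes of homologous recombination, 10 rose and 6 fell with sh1, and 14 rose and 8 fell with sh2 (medians 0.02 and 0.04). RPA2, a subunit of the single-strand binding complex RPA, rose by 0.85 ± 0.048 and 0.70 ± 0.048. MUS81, a nuclease that cuts branched DNA, fell by 0.79 ± 0.06 and 0.55 ± 0.057. Between the hairpins RAD51B, a recombination mediator, differed most, by -0.91 ± 0.12, with -1.05 ± 0.119 for sh1 and -0.14 ± 0.103 for sh2 (not called). In all, 13 of the 32 were higher and 14 lower with sh1 than with sh2 (median -0.08), and of the 10 members 5 were higher and 4 lower (median 0.04).

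**Figure D2:**
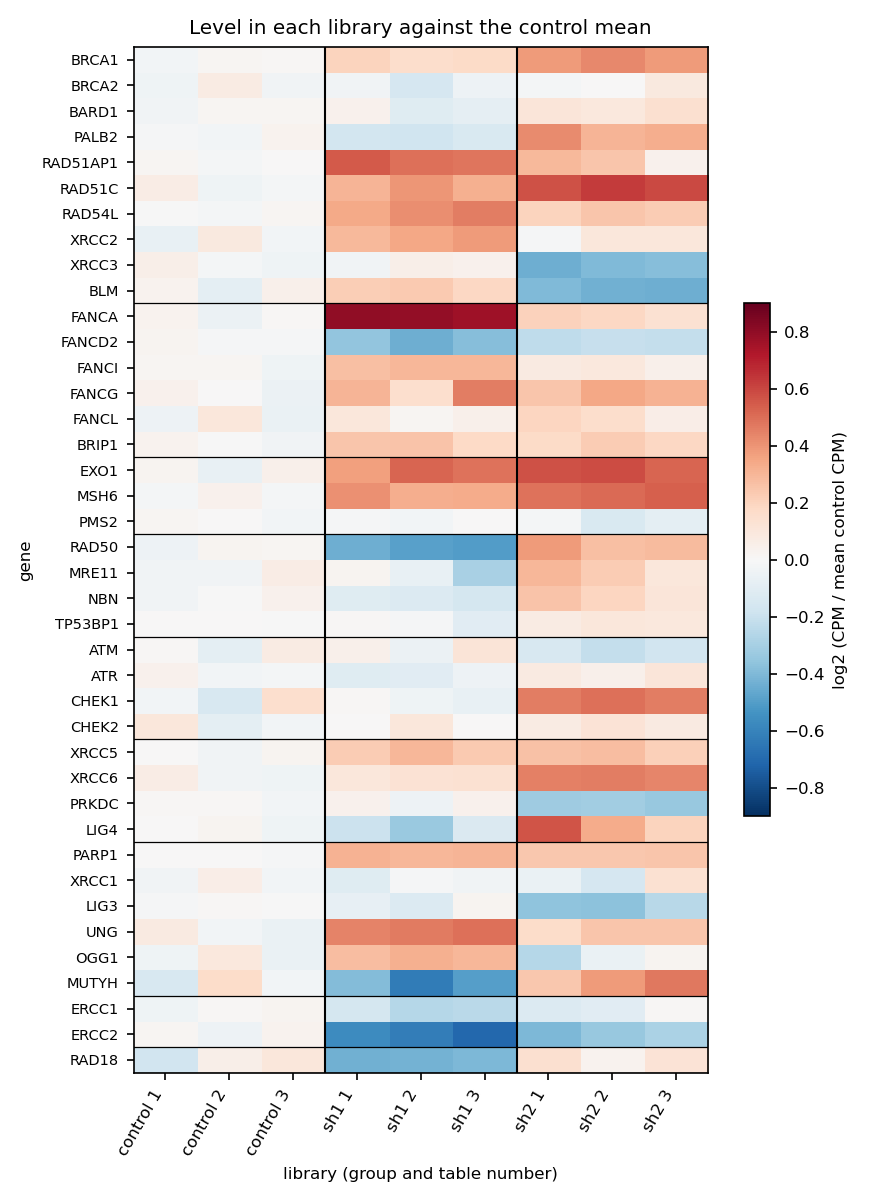
Level of each member in each of the 9 libraries as log2 of its CPM over the mean control CPM (colour scale, red above and blue below control), with columns grouped by hairpin and rows by pathway. The 3 libraries of a group are alike for most rows, FANCA is darkest red in all 3 sh1 columns, and LIG4 in sh2 (23.5, 20 and 18.3 CPM) and MUTYH show visible spread within a group.

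In the Fanconi anemia pathway, 4 of 6 members rose and 1 fell with sh1, and 5 rose and 1 fell with sh2 (medians 0.26 and 0.16). FANCA, a subunit of the ubiquitin ligase at the centre of the pathway, stood at 71.2, 67.1 and 70.1 CPM in control libraries, at 121, 120 and 118 in sh1 libraries and at 80.3, 79.1 and 76.4 in sh2 libraries. All sh1 libraries lay above all sh2 libraries, which in turn lay above control. The log2 fold change with sh1, 0.79 ± 0.037 (1.73-fold, adjusted p = 7.61e-18), was the largest rise among the 40 members. With sh2 it was 0.18 ± 0.039 (adjusted p = 0.000192), and the difference was 0.61 ± 0.036. FANCG, in the same ligase, rose by 0.31 ± 0.069 and 0.31 ± 0.068. FANCL, its catalytic subunit, had 0.05 ± 0.054 with sh1 (not called) and 0.14 ± 0.053 with sh2 (adjusted p = 0.0206, and 0.119 with DESeq2), with sh2 libraries that overlapped control.

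FANCD2 and FANCI, which form the clamp that the ligase modifies, did not move together. FANCD2, at 67.3 ± 0.926 CPM in control, fell to 51.4 ± 1.58 in sh1 and 57.9 ± 0.424 in sh2 cells (log2 -0.39 ± 0.042 and -0.22 ± 0.04). FANCI, at 160 ± 3.31 CPM in control, was at 196 ± 2.19 under sh1 (0.29 ± 0.031) and at 168 ± 3.44 under sh2 (0.07 ± 0.031, adjusted p = 0.0444). The sh2 value was not called by DESeq2 (adjusted p = 0.142) and was lost when any of 8 of the 9 libraries was left out (sh2 library 3 was the exception). The ratio of FANCI to FANCD2 in TPM was 2.61 ± 0.0538 in control, 4.19 ± 0.166 with sh1 and 3.19 ± 0.0665 with sh2, and its ranges did not overlap. BRIP1, a helicase of the pathway that binds BRCA1, rose by 0.23 ± 0.045 and 0.19 ± 0.045. Between the hairpins 2 of the 6 members, FANCA and FANCI, were higher with sh1 and 1, FANCD2, was lower (median 0.02).

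Of 16 other tested Fanconi genes, 7 rose and 6 fell with sh1, and 4 rose and 4 fell with sh2 (medians 0.18 and 0.03), while 6 were higher and 6 lower with sh1 than with sh2 (median -0.03). DCLRE1A, a nuclease of crosslink repair, rose by 0.62 ± 0.073 and 0.77 ± 0.07, and CENPS, a histone-fold partner of FANCM, by 0.52 ± 0.094 and 0.55 ± 0.092. WDR48, which activates the deubiquitinase of FANCD2, fell by 0.65 ± 0.056 and 0.35 ± 0.053. UBE2T, the ubiquitin-conjugating enzyme that works with FANCL, was the gene of the list with the largest difference between the hairpins. Its log2 fold change was -0.32 ± 0.054 with sh1 and 0.94 ± 0.046 with sh2, a difference of -1.26 ± 0.048 (adjusted p = 5.07e-20).

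In mismatch repair, EXO1 and MSH6 rose with both hairpins and PMS2 was not called in any comparison (medians of the 3 members 0.35 and 0.51). EXO1, the exonuclease that removes the mismatched strand, stood at 51.9, 48.6 and 52.6 CPM in control libraries, at 66.0, 73.3 and 71.4 in sh1 libraries and at 75.8, 76.7 and 73.3 in sh2 libraries. No hairpin library reached down to the control range, and the sh1 and sh2 ranges met at 73.3. Fold changes were, in log2, 0.46 ± 0.046 (adjusted p = 3.09e-10) and 0.56 ± 0.045 (adjusted p = 2.78e-12). Their difference of -0.10 ± 0.043 (adjusted p = 0.0393) was not called by DESeq2 (0.137). MSH6, part of the clamp that recognises single mismatches, went from 185 ± 4.04 CPM to 237 ± 7.74 and 263 ± 4.68, log2 changes of 0.35 ± 0.032 and 0.51 ± 0.031, with a difference of -0.15 ± 0.03. PMS2, an endonuclease that nicks the new strand, had -0.01 ± 0.04 and -0.08 ± 0.04, the latter -0.11 and called without sh2 library 1 (adjusted p = 0.0235). Its difference between the hairpins was 0.07 ± 0.04. That difference was called with upper-quartile scaling (0.10, adjusted p = 0.0337) and without sh2 library 1 (0.10, adjusted p = 0.0415).

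Of 5 other mismatch repair genes, 2 rose and 2 fell with sh1 (median -0.04), and 4 rose and 1 fell with sh2 (median 0.35). MLH3, an endonuclease subunit, fell by 0.29 ± 0.042 and 0.19 ± 0.041. Between the hairpins 1 of the 5 was higher and 3 were lower with sh1 (median -0.10), and MSH3 differed most, by -0.38 ± 0.062. Among the 3 members, EXO1 and MSH6 were the 2 lower ones (median -0.10).

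EXO1, FANCA, RAD51C and MSH6 had the largest mean rises over both hairpins among members that rose with each (0.51, 0.48, 0.47 and 0.43 on the log2 scale). Their promoters are shown so that the sequence upstream of these genes can be compared. Each run is the 250 bases before the transcription start in RefSeq (assembly GRCh38.p14, not the submitters' build), 5′ to 3′ on the gene's strand, at chr1:241847954-241848203 (plus strand) for EXO1, chr16:89816648-89816897 (minus) for FANCA, chr17:58692323-58692572 (plus) for RAD51C and chr2:47782895-47783144 (plus) for MSH6. Capitals mark matches to any motif searched.
EXO1: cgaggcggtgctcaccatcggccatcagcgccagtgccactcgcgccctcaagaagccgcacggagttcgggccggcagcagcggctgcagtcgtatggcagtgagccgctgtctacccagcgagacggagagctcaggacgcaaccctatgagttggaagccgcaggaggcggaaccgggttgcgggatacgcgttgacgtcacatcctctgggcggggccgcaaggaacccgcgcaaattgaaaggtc
FANCA: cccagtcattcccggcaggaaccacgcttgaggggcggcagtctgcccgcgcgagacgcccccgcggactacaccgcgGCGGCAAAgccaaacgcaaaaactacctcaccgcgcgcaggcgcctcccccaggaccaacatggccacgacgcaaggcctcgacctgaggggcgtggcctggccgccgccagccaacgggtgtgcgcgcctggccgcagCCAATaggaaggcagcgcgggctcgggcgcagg
RAD51C: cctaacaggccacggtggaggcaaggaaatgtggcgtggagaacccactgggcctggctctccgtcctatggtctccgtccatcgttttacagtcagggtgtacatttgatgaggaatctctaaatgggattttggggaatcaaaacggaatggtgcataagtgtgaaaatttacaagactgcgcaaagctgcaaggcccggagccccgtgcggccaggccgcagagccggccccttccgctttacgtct
MSH6: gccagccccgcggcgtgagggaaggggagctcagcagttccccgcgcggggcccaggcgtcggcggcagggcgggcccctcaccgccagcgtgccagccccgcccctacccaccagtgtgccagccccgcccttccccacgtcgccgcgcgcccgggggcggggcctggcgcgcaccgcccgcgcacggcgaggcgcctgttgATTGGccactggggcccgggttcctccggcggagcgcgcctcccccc

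The motifs were searched as exact words on both strands, and they do not overlap one another in these 4 runs. An E2F word (TTTCCCGC, TTTCGCGC, TTTGCCGC or TTTGGCGC, bound by factors of S phase entry) occurred in the FANCA promoter, on the other strand, 172 to 165 bases before the start. A CCAAT box lay 33 to 29 bases before the start of FANCA and, on the other strand, 47 to 43 bases before that of MSH6. EXO1 and RAD51C held none of the words in this window. Over the 36 members with a promoter in the table, 2 held an E2F word (5.56%, against 4.42% of the promoters of 11061 tested genes), 3 a CHR element of mitotic genes (TTTGAA or TTCGAA, 8.33% against 9.92%) and 19 a CCAAT box (52.8% against 35.2%). FANCI, NBN, XRCC5 and PRKDC had no entry. Such matches describe letters and were not tested as binding sites.

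The break sensors differed between the hairpins. With sh1, RAD50 and NBN fell and MRE11 and TP53BP1 were not called (median -0.12). All 4 rose with sh2 (median 0.20), and all 4 were lower with sh1 than with sh2 (median -0.32). Over all tested genes, 34.6% fell with sh1, 34.2% rose with sh2 and 35.6% were lower with sh1 than with sh2. RAD50, MRE11 and NBN belong to the same complex. RAD50, the long coiled-coil ATPase that tethers broken ends, stood at 99.0, 104 and 103 CPM in control libraries, at 75.1, 72.7 and 71.9 in sh1 libraries and at 133, 123 and 124 in sh2 libraries. Every sh1 library was below control and every sh2 library above it. On the log2 scale the changes were -0.48 ± 0.04 (adjusted p = 8.09e-12) and 0.31 ± 0.037 (adjusted p = 1.18e-08), and the difference was -0.79 ± 0.039 (adjusted p = 3.15e-17).

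Its partners shifted less. NBN, the subunit that recruits ATM, fell by 0.13 ± 0.043 with sh1 (adjusted p = 0.00909, and 0.0916 with upper-quartile scaling) and rose by 0.19 ± 0.041 with sh2. MRE11, the nuclease, had -0.11 ± 0.07 with sh1 (adjusted p = 0.17) and 0.21 ± 0.066 with sh2 (adjusted p = 0.00576, and 0.0529 without sh2 library 1). Without sh1 library 1 the MRE11 value with sh1 was -0.18 (adjusted p = 0.042). In TPM, the ratio of RAD50 to NBN was 1.05 ± 0.0212 in control, 0.828 ± 0.0105 with sh1 and 1.15 ± 0.0358 with sh2, without overlap. The ratio of RAD50 to MRE11 was 2.68 ± 0.103, 2.09 ± 0.201 and 2.88 ± 0.144. Its sh1 range lay below control, while the control and sh2 ranges overlapped (2.58 to 2.79 and 2.76 to 3.04). The ratio of MRE11 to NBN stayed within overlapping ranges (0.393 ± 0.00744, 0.399 ± 0.0374 and 0.399 ± 0.00883). TP53BP1, the 53BP1 protein that shields ends from resection, had -0.03 ± 0.039 with sh1 and 0.09 ± 0.038 with sh2 (adjusted p = 0.0408, and 0.187 with DESeq2).

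Of 13 other tested genes of break signalling, 4 rose and 5 fell with sh1 (median -0.07), 5 rose and 5 fell with sh2 (median 0.00), and 2 were higher and 8 lower with sh1 than with sh2 (median -0.18). H2AX, the histone variant phosphorylated around breaks, rose by 0.58 ± 0.053 and 0.67 ± 0.052. RNF168, the ubiquitin ligase that prepares chromatin for 53BP1, fell by 0.81 ± 0.039 and 0.32 ± 0.036, and ABRAXAS1, a scaffold of a BRCA1 complex, by 0.64 ± 0.116 and 0.47 ± 0.111. PAXIP1, an adaptor of 53BP1, differed most between the hairpins (0.57 ± 0.05), with 0.19 ± 0.048 for sh1 and -0.38 ± 0.051 for sh2.

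Of the 4 checkpoint kinases, 0 were called with sh1 by edgeR, by DESeq2 or by limma on FPKM (values from -0.09 to 0.04, median 0.00), while 1 rose and 1 fell with sh2 (median 0.09). At an unadjusted p below 0.05 there was 1 with sh1, ATR, at -0.09 ± 0.041 (unadjusted p = 0.0419, adjusted p = 0.0595, and 0.0476 with RLE scaling). CHEK1, the effector kinase that restrains replication origins and mitotic entry, stood at 25.0, 23.0 and 28.2 CPM in control libraries, at 25.6, 24.7 and 24.2 in sh1 libraries and at 34.9, 35.8 and 35.0 in sh2 libraries. The sh1 libraries lay within the control range and the sh2 libraries above it. These are log2 fold changes of -0.03 ± 0.067 (adjusted p = 0.679) and 0.47 ± 0.061 (adjusted p = 6.31e-08), and the difference was -0.50 ± 0.062. CHEK2, the effector of ATM, was called in no comparison, with 0.04 ± 0.053 and 0.09 ± 0.052. Without control library 1, the CHEK2 value with sh2 was 0.14 (adjusted p = 0.0233).

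The kinases at the top of the cascade also differed between the hairpins. ATM, which answers breaks, had 0.04 ± 0.055 with sh1 (not called) and fell by 0.18 ± 0.056 with sh2 (adjusted p = 0.00668, and 0.0756 on FPKM with a pseudocount of 0.1). ATR, which answers stalled forks, had 0.08 ± 0.039 with sh2 (not called) and was lower with sh1 than with sh2 by 0.17 ± 0.04 on the log2 scale, while ATM was higher by 0.22 ± 0.056. The ratio of ATR to ATM in TPM was 2.95 ± 0.168 in control, 2.71 ± 0.117 with sh1 and 3.52 ± 0.0548 with sh2, and the sh2 range lay above the others. Across the 4 kinases 1 was higher and 2 were lower with sh1 than with sh2 (median -0.11).

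Of 16 other checkpoint genes, 7 rose and 5 fell with sh1 (median 0.03), 9 rose and 3 fell with sh2 (median 0.17), and 5 were higher and 8 lower with sh1 than with sh2 (median -0.09). PKMYT1, a kinase that holds back CDK1, rose by 0.74 ± 0.045 and 0.89 ± 0.044. The phosphatase genes CDC25A and CDC25C, which release cyclin-dependent kinases, rose by 0.49 ± 0.062 and 0.93 ± 0.058, and by 0.27 ± 0.093 and 0.78 ± 0.085. RAD17, the loader of the checkpoint clamp, rose by 0.26 ± 0.059 with sh1 and fell by 0.73 ± 0.066 with sh2, a difference of 0.99 ± 0.064. Of 19 tested p53 target genes, 9 rose and 7 fell with sh1 (median 0.17), 7 rose and 10 fell with sh2 (median -0.19), and 11 were higher and 4 lower with sh1 than with sh2 (median 0.15). CCNG1, cyclin G1, rose by 1.28 ± 0.036 and 0.65 ± 0.038, and TP53INP1 by 0.94 ± 0.134 and 0.94 ± 0.132. GADD45A, a stress-induced growth arrest gene, fell by 0.96 ± 0.055 and 1.11 ± 0.055. BTG2, an antiproliferative p53 target, differed most between the hairpins, at 0.80 ± 0.056 and -1.0 ± 0.071.

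In end joining, 2 of 4 members rose and 1 fell with sh1, and 3 rose and 1 fell with sh2 (medians 0.07 and 0.31). XRCC5 and XRCC6 encode the larger and the smaller subunit of Ku, the ring that caps broken ends, and at 282 ± 6.71 and 528 ± 16.2 TPM they had the highest control levels of the 40 members. XRCC5 rose by 0.26 ± 0.028 and 0.25 ± 0.028 with sh1 and sh2. XRCC6 rose by 0.13 ± 0.028 and 0.45 ± 0.028, and the difference between the hairpins was -0.33 ± 0.028. The ratio of XRCC6 to XRCC5 in TPM was 1.87 ± 0.0846 in control, 1.71 ± 0.0438 with sh1 and 2.15 ± 0.0345 with sh2, with each sh1 value below and each sh2 value above the control range.

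PRKDC, the kinase recruited by Ku, went the other way from Ku with sh2. Control cells had 879 ± 12.9 CPM, sh1 cells 886 ± 28.5 and sh2 cells 703 ± 7.13, log2 changes of 0.01 ± 0.026 (not called) and -0.32 ± 0.026. LIG4, the ligase that seals the ends, stood at 15.9, 16.2 and 15.5 CPM in control libraries, at 13.9, 12.6 and 14.5 in sh1 libraries and at 23.5, 20 and 18.3 in sh2 libraries. The groups did not overlap, and the sh2 libraries spread more than the others (coefficient of variation 12.8%, the largest of any member in sh2). The log2 fold changes were -0.22 ± 0.09 (adjusted p = 0.033) and 0.38 ± 0.082 (adjusted p = 0.000178), with a difference of -0.59 ± 0.085. The sh1 value was not called by DESeq2 (0.098), by limma on FPKM with a pseudocount of 1 (0.0518) or with upper-quartile scaling (0.0917). It was also not called without control library 1 (0.0663), control library 2 (0.0871), sh1 library 1 (0.0536) or sh1 library 2 (0.154).

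Of 6 other tested end joining genes, 3 fell and the other 3 were not called with sh1 (median -0.15), and 2 rose and 3 fell with sh2 (median -0.07). NHEJ1, the XLF scaffold that aligns ends, fell by 0.31 ± 0.11 and 0.87 ± 0.117, and PAXX, which stabilises Ku on DNA, by 0.24 ± 0.076 and 0.31 ± 0.075. POLM, a polymerase that fills gaps at ends, had -0.39 ± 0.078 and 0.32 ± 0.069. Between the hairpins 1 of the 6 was higher and 2 were lower with sh1, and 1 of the 4 members, PRKDC, was higher and 2, XRCC6 and LIG4, were lower (medians 0.00 and -0.16).

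In base excision and single-strand break repair, 3 of 6 members rose and 1 fell with each hairpin (medians 0.12 and 0.10). PARP1, the sensor of strand nicks, was at 204 ± 0.696 CPM in control, 252 ± 1.01 in sh1 and 242 ± 0.648 in sh2 cells (0.31 ± 0.028 and 0.25 ± 0.028). Its coefficient of variation between libraries was the smallest of any member in all 3 groups. UNG, the glycosylase that removes uracil, rose by 0.47 ± 0.041 and 0.22 ± 0.041. XRCC1, the scaffold at single-strand breaks, was called in no comparison (-0.05 ± 0.058 and -0.02 ± 0.057). LIG3, the ligase bound to XRCC1, had -0.05 ± 0.048 with sh1 (not called) and fell by 0.33 ± 0.049 with sh2, although its sum with the overlapping gene RFFL had 0.05.

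With sh1, the 2 glycosylases that deal with oxidised guanine changed in opposite directions. MUTYH, which removes adenine placed against oxidised guanine, stood at 17.2, 21.3 and 18.7 CPM in control libraries, at 14.5, 12.3 and 13.5 in sh1 libraries and at 22.5, 24.8 and 26.4 in sh2 libraries. All sh1 libraries were below control and all sh2 libraries above it. Fold changes were, in log2, -0.50 ± 0.089 (adjusted p = 9.45e-06) and 0.37 ± 0.077 (adjusted p = 0.000106), and the difference of -0.87 ± 0.084 (adjusted p = 1.39e-10) was the largest of the 40 members taken alone. As a sum with the overlapping gene TOE1, which alone had 0.32, it was -0.32. Adding all counts of TOE1 moves the value toward 0 by construction, so whether the MUTYH difference itself is smaller was not tested. The difference of RAD50, which has no such overlap, was -0.79. OGG1, which removes oxidised guanine itself, rose by 0.30 ± 0.087 with sh1 (adjusted p = 0.00321) and had -0.09 ± 0.09 with sh2 (not called), a difference of 0.39 ± 0.087. Across the 6 members 3 were higher and 1 was lower with sh1 than with sh2 (median 0.15). OGG1 and MUTYH were among the members with the fewest counts, and both overlap another expressed gene: as sums with those genes, the sh1 values were -0.16 for OGG1 and -0.03 for MUTYH.

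Of 20 other genes of these routes, 4 rose and 9 fell with sh1 (median -0.08), 11 rose and 3 fell with sh2 (median 0.14), and 5 were higher and 11 lower with sh1 than with sh2 (median -0.21). NTHL1, a glycosylase of oxidised pyrimidines, rose by 0.50 ± 0.083 and 0.87 ± 0.078. LIG1, the replicative ligase, rose by 0.69 ± 0.035 and 0.47 ± 0.035, and FEN1, the flap nuclease, by 0.45 ± 0.042 and 0.43 ± 0.042. TDP2, which frees ends blocked by topoisomerase, had -0.35 ± 0.054 and 0.25 ± 0.05.

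Both nucleotide excision members fell with sh1 (median -0.43) and 1 of the 2, ERCC2, fell with sh2 (median -0.21). ERCC2, the XPD helicase of the transcription factor complex TFIIH, stood at 71.0, 68.1 and 71.8 CPM in control libraries, at 47.6, 45.6 and 43.0 in sh1 libraries and at 53, 55.6 and 57.7 in sh2 libraries. Both hairpin groups were below control in every library, and sh1 was the lowest. On the log2 scale the changes were -0.63 ± 0.046 (adjusted p = 3.39e-13) and -0.34 ± 0.044 (adjusted p = 4.92e-08). ERCC1, part of the nuclease that cuts beside the lesion, fell by 0.22 ± 0.045 with sh1 and had -0.07 ± 0.044 with sh2 (not called, but -0.11 with an adjusted p of 0.0333 without sh2 library 3). Its isoform-weighted length in the tables was 2307 ± 103 bases in control and 2138 ± 30.7 with sh2, a change of -7.33%, the only one above 5% among the members. Both genes were lower with sh1 than with sh2, by 0.29 ± 0.048 for ERCC2 and 0.15 ± 0.045 for ERCC1 on the log2 scale (median -0.22).

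Of 21 other genes of nucleotide excision repair, 6 rose and 9 fell with sh1 (median -0.14), 11 rose and 5 fell with sh2 (median 0.11), and 5 were higher and 9 lower with sh1 than with sh2 (median -0.10). CETN2, a centrin in the lesion recognition complex, rose by 0.96 ± 0.059 and 0.56 ± 0.061. UVSSA, a factor of transcription-coupled repair, fell by 0.62 ± 0.078 and 0.35 ± 0.074, and GTF2H2, another TFIIH subunit, by 0.38 ± 0.081 and 0.55 ± 0.082. MNAT1, a TFIIH subunit of the kinase module, had -0.82 ± 0.052 and 0.00 ± 0.046, and the difference of -0.82 ± 0.051 was the largest of this list.

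RAD18, the ubiquitin ligase that marks PCNA at stalled forks, was the 1 member of postreplication repair. It stood at 28.2, 32.9 and 34.0 CPM in control libraries, at 23.5, 23.6 and 24.0 in sh1 libraries and at 35.1, 32.4 and 34.5 in sh2 libraries. The sh1 libraries were all below control, and the sh2 libraries overlapped it. These are log2 fold changes of -0.42 ± 0.066 (adjusted p = 1.89e-06) and 0.10 ± 0.061 (adjusted p = 0.142), with a difference of -0.52 ± 0.065. Of 13 other genes of this route, 2 rose and 6 fell with sh1 (median -0.11), 6 rose and 5 fell with sh2 (median 0.00), and 3 were higher and 8 lower with sh1 than with sh2 (median -0.19). UBE2A and UBE2B, the near-identical conjugating enzymes that work with RAD18, had 0.38 ± 0.038 and 0.46 ± 0.038 for UBE2A, and -0.24 ± 0.04 and -1.34 ± 0.045 for UBE2B. Reads shared by similar genes can be split between them in counting. Whether that affected the values of UBE2A and UBE2B was not tested. POLI, a translesion polymerase, fell by 0.64 ± 0.107 and 0.55 ± 0.104, and PRIMPOL, which restarts forks past lesions, had -0.90 ± 0.112 and 0.25 ± 0.094.

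**Figure D3:**
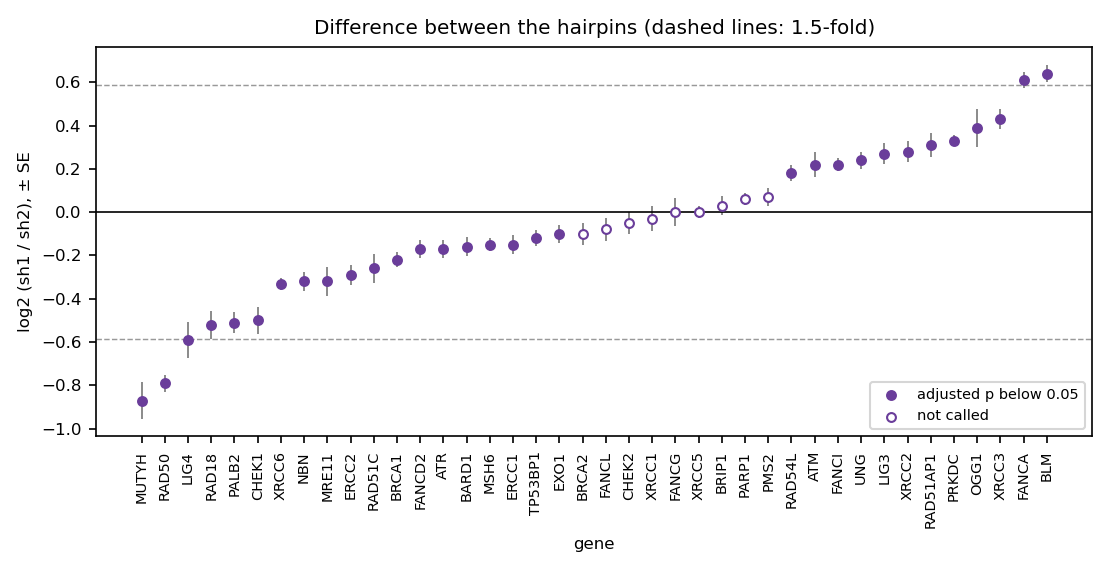
Log2 difference between sh1 and sh2 for each of the 40 members, ordered from lowest to highest, with standard errors; filled points have an adjusted p below 0.05 and dashed lines mark 1.5-fold. MUTYH (-0.87), RAD50 (-0.79) and LIG4 (-0.59) lie below the lower line, and BLM (0.64) and FANCA (0.61) above the upper one.

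The 40 members were also set beside the other genes of their pathways and beside lists of the cell cycle. Of the 142 other pathway genes tested (144 listed), 42 rose and 51 fell with sh1 (median -0.06), 66 rose and 37 fell with sh2 (median 0.07), and 41 were higher and 69 lower with sh1 than with sh2 (median -0.11). Among 30 G1/S and replication genes, 23 rose and 3 fell with sh1 (median 0.65), 21 rose and 4 fell with sh2 (median 0.54), and 11 were higher and 8 lower with sh1 (median 0.02). E2F1, the activator of S phase genes, rose by 1.56 ± 0.048 and 1.05 ± 0.05. CCNE2, a G1 cyclin, rose by 1.41 ± 0.07 and 0.75 ± 0.075, and GINS2, a subunit of the replicative helicase, by 0.99 ± 0.07 and 1.11 ± 0.068. CCNE1, cyclin E1, differed most between the hairpins (1.80 ± 0.069 against 0.21 ± 0.084). At 1.5-fold or more, 18 and 15 of these 30 genes changed with sh1 and sh2. Of the 40 members 2 and 1 did, and of the 142 other pathway genes tested 21 and 19 did.

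Of 30 mitotic genes, 20 rose and 4 fell with sh1 (median 0.30), 29 rose and 1 fell with sh2 (median 0.81), and 1 was higher and 25 lower with sh1 than with sh2 (median -0.47). KIF20A, a kinesin of cytokinesis, rose by 0.77 ± 0.038 and 1.29 ± 0.036, ESPL1, separase, by 0.72 ± 0.047 and 1.18 ± 0.044, and CCNB1, cyclin B1, by 0.76 ± 0.038 and 1.12 ± 0.036. ECT2, a regulator of cytokinesis, had -1.27 ± 0.047 and 0.30 ± 0.039. At 1.5-fold or more, 9 and 23 of the 30 mitotic genes changed. The part of the cell cycle in the changes of the repair genes was not tested.

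**Figure D4:**
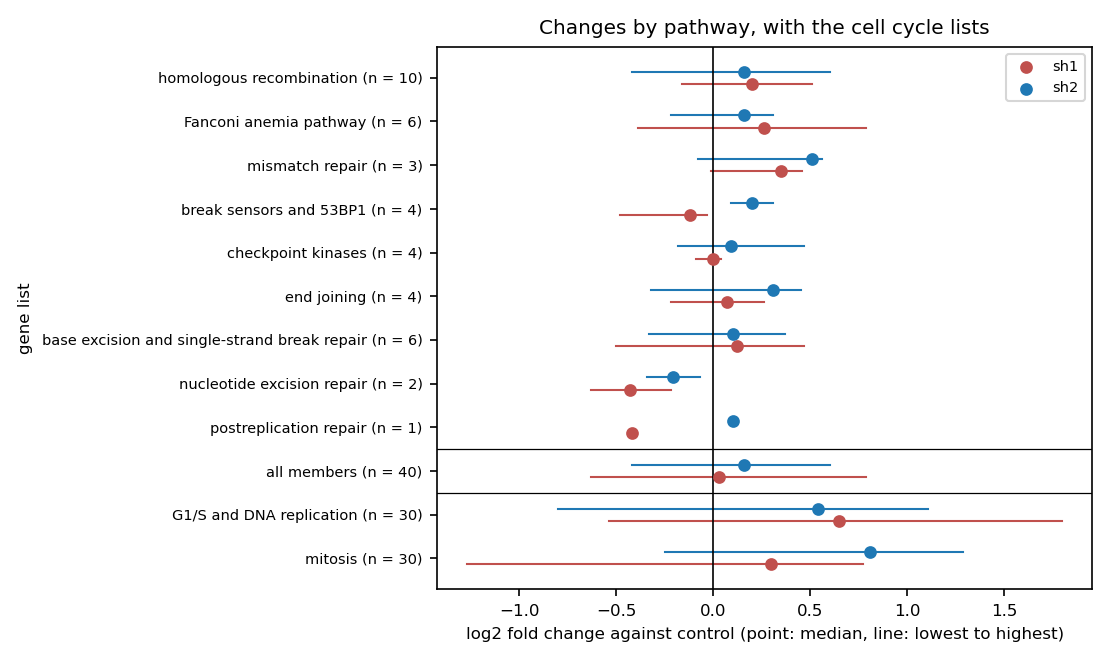
Median (point) and lowest to highest (line) log2 fold change against control within each pathway of members, over all 40 members, and within the lists of G1/S and replication and of mitosis, for sh1 (red) and sh2 (blue). Member medians lie between -0.43 (nucleotide excision, sh1) and 0.51 (mismatch repair, sh2), while the cell cycle lists have medians of 0.65 and 0.54, and 0.30 and 0.81.

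For 18 of the 40 members another gene of the tables overlaps the gene's span in the RefSeq annotation, and the sources used here do not give whether counting was stranded. Without strand, reads from the shared stretch cannot be told apart. Each of the 18 was therefore also fitted as the sum with its overlapping genes. In these sums, 6 called values had the opposite sign. So did 2 that were not called: OGG1 with sh2 (0.06) and XRCC1 between the hairpins (0.02). A sum takes in all counts of the other gene, not only those of the shared stretch. Its sign therefore cannot show whether reads were misassigned. Mean expected counts were 553.7 for TADA3 against 189.5 for OGG1, 1714.9 for KLC1 against 788.4 for XRCC3, and 1063.3 for RFFL against 720.7 for LIG3. LRRC41 had 1021.8, fewer than the 1163.3 of RAD54L. OGG1 with sh1 was -0.16 as a sum with TADA3 and CAMK1 (adjusted p = 0.0025), where TADA3 alone had -0.41 and OGG1 alone 0.30. XRCC3 with sh2 was 0.17 as a sum with KLC1, which alone had 0.44, and LIG3 with sh2 was 0.05 with RFFL, which alone had 0.29. Between the hairpins, the sums had -0.22 for OGG1, -0.22 for LIG3 and -0.15 for RAD54L with LRRC41.

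The pair of MUTYH and TOE1, a neighbour that overlaps it, had values of opposite sign with sh1. MUTYH had -0.50 and TOE1 0.50 (adjusted p = 3.81e-06), and their sum -0.03 (adjusted p = 0.672), whereas with sh2 the sum rose by 0.30 (adjusted p = 1.78e-05). FANCA kept a rise with sh1 as a sum with ZNF276 (0.49, ZNF276 alone -0.36) and was not called with sh2 (0.07, adjusted p = 0.0662). MSH6 kept both rises, at 0.11 and 0.23, as a sum with FBXO11, which alone had -0.44 and -0.39. ERCC2 kept both falls as a sum with KLC3 (-0.52 and -0.31). FANCI with sh2 (0.00), TP53BP1 with sh2 (0.04) and, between the hairpins, TP53BP1 (-0.06) and XRCC3 (0.05) were not called as sums. Conversely, 5 values not called for the member alone were called as sums: with sh1 XRCC3 (0.22, adjusted p = 3.08e-07), LIG3 (-0.17, adjusted p = 7.08e-05) and MRE11 with ANKRD49 (-0.19, adjusted p = 0.00929), with sh2 ERCC1 with POLR1G (-0.14, adjusted p = 0.00188), and between the hairpins FANCL with VRK2 (-0.22, adjusted p = 1.19e-05). RAD50, BLM, RAD51C, EXO1, LIG4 and RAD18 have no such overlap.

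In control cells, the members' levels per length ranged from 528 ± 16.2 TPM for XRCC6 down to 6.78 ± 0.406 for ATM. After the Ku genes came PRKDC at 160 ± 1.59, PARP1 at 126 ± 1.16 and MSH6 at 108 ± 3.21 TPM, and the lowest after ATM were LIG4 at 9.8 ± 0.16 and BRCA2 at 9.88 ± 0.477 TPM, which did not differ beyond their spread. The median coefficient of variation between the libraries of a group was 2.62% in control, 3.03% with sh1 and 2.44% with sh2. It was largest for MUTYH in control (10.9%), for MRE11 with sh1 (11.1%) and for LIG4 with sh2. Across the 40 members, the Spearman correlation of log2 fold change with transcript length was -0.24 for sh1, -0.20 for sh2 and -0.04 for sh1 against sh2, where all 13580 genes had -0.06, -0.12 and 0.06. The points of each correlation share the same libraries.

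**Figure D5:**
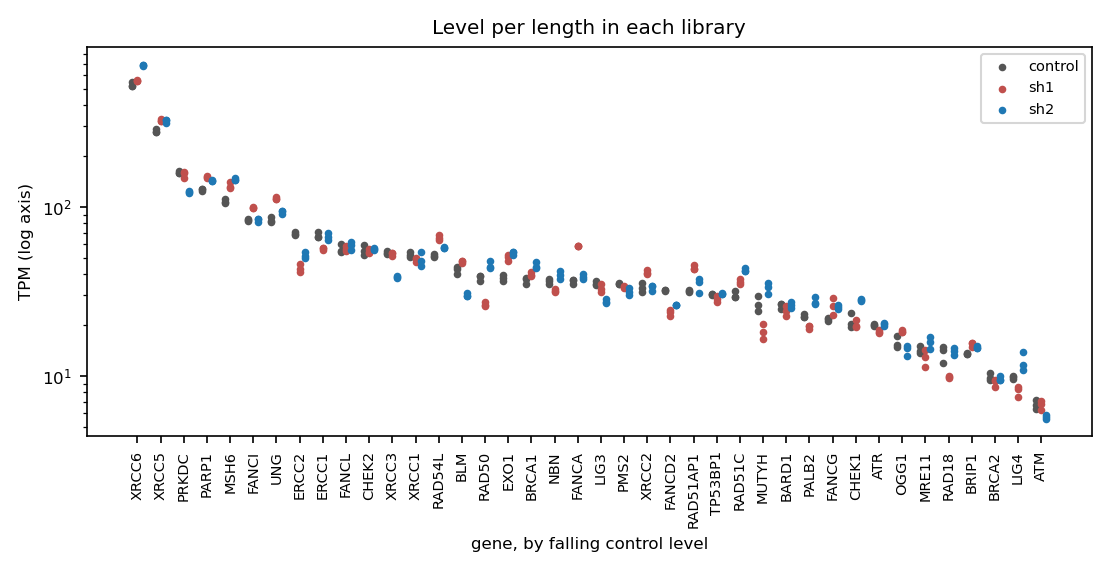
TPM of each member in each library on a log axis, ordered by falling control level, with control in grey, sh1 in red and sh2 in blue. The order runs from XRCC6 (528 TPM in control) to ATM (6.78 TPM), and the sh1 points of FANCA, ERCC2 and RAD50 stand clear of control.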

How the data were processed

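Gene expression was measured by RNA sequencing of 9 libraries in 3 groups (1 sample per group, 3 numbered tables each). Nothing in the labels tells if these tables come from separate cultures, libraries or runs, and the p-values therefore measure spread between libraries alone, which may be technical. Tables of a sample differed by more than sampling noise (chi-square per degree of freedom 1.41 to 2.43 for genes averaging 20 counts or more). The submitters' processing notes name the build hg19 and the tools RSEM 1.2.12, Bowtie2 2.2.5, HISAT2 2.0.4 and DESeq2 1.4.5, without roles. Per the file headers, each deposited table gives for every gene an expected count, which is an estimate that need not be whole. The deposited tables also give the authors' TPM and FPKM values, which are scaled to transcript length and depth, and a transcript length. The deposited TPM values were used for levels between genes, and the deposited FPKM values only in alternatives, as log2 of the value plus a pseudocount of 1 or 0.1 where the mean was 1 FPKM or more. Symbols were taken from RefSeq (GRCh38.p14), which named 19223 of 19266 identifiers and is not the submitters' build.

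Expected counts were rounded and analysed in R 4.3.3 with edgeR 4.0.16 (filterByExpr, TMM, 1 quasi-likelihood fit of all 9 libraries with group as the only term). Benjamini-Hochberg adjustment ran over all 13580 tested genes and calls were made at an adjusted p below 0.05, with 1.5-fold as an added limit. The coefficient of variation that edgeR calls biological was 2.33%. Errors are SE for log2 fold changes and SD for levels. Each SE was computed back from the test, as the size of the log2 fold change over the square root of its F statistic. The script was tested on simulated counts. DESeq2 1.42.0, limma 3.58.1 on FPKM, RLE and upper-quartile scaling, no filter, a replicate block, each library left out, the tables of a sample summed (no test), and sums with overlapping genes were the alternatives. Genes of the members' range of mean level as a second background were added after seeing the data.

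The members and lists were chosen with earlier results of these data known. All members are named, with values in every library for those called at 1.5-fold in any contrast and for a leading gene of other pathways. From each other list up to 3 genes were named, those with the largest mean change over both hairpins among genes called the same way with each, and the gene of largest difference between the hairpins. Some genes that this rule names are not reported here. Among the marker lists, the rule named KRT14 (-2.06 and -1.0 with sh1 and sh2), TP63 (-1.28 and -1.16) and KRT16 (-1.74 and -0.41) for squamous cells. It also named COL1A1 (0.16 and 0.46) for fibroblasts and CD68 (0.66 and 0.60) and CD14 (-0.27 and 0.85) for blood cells. For endothelium it named VWF (-0.66 and -1.28) and CDH5 (0.74 and 0.61).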

Additional observations from a re-analysis of the deposited data

Results flagged for a closer look

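For 6 of the 40 members (15%, against 12.7% of all tested genes and 16% of those at the members' level) the hairpins had effects of opposite direction against the same control libraries, each called by itself, and the test of sh1 against sh2 also called the difference. On the log2 scale, sh1 minus sh2 was -0.51 for PALB2, 0.64 for BLM, -0.79 for RAD50, -0.32 for NBN, -0.59 for LIG4 and -0.87 for MUTYH (-0.32 as a sum with the overlapping gene TOE1). In 5 of the 6, sh1 was the lower hairpin, and BLM was the exception. The falls of PALB2, NBN and LIG4 with sh1 were not called with upper-quartile scaling. That of LIG4 was also not called by DESeq2 (adjusted p = 0.098), by limma on FPKM with a pseudocount of 1 (0.0518) or without some single libraries. The fall of MUTYH with sh1 was not called as a sum with TOE1 (-0.03, adjusted p = 0.672), so the directions were then not opposite by the calls.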

How the results depend on the processing

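Called members numbered 26 for sh1, 31 for sh2 and 31 between the hairpins, and these counts stayed at 24 to 28, 27 to 32 and 29 to 32 under all alternatives. At 1.5-fold or more, the count with sh1 was 2, and it was 1 with upper-quartile scaling (ERCC2 at -0.58) and 0 as sums with overlapping genes. The count with sh2 was 1 (RAD51C), and it was 0 on FPKM with a pseudocount of 1, 0 with a pseudocount of 0.1, 0 without the filter and 0 to 1 with a library left out: RAD51C was at 0.57 without control library 2 and at 0.58 without control library 3 or sh2 library 2. The count between the hairpins was 5, and it was 3 on FPKM with a pseudocount of 1 and 3 as sums with overlapping genes. It was 4 on FPKM with a pseudocount of 0.1 and 4 with upper-quartile scaling. With a library left out it was 4 to 5 (LIG4 at -0.54 without sh1 library 2 and -0.49 without sh2 library 1). Summing with overlapping genes turned the sign of 6 called values: OGG1 with sh1 (-0.16), XRCC3 with sh2 (0.17), LIG3 with sh2 (0.05), and between the hairpins RAD54L (-0.15), LIG3 (-0.22) and OGG1 (-0.22). These sums add all of the other gene's counts, so their signs cannot show whether reads were misassigned.

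With a library left out, 1036 single-member values stayed on their side of the threshold, 35 lost the call and 9 gained one. All 792 values of called members kept their sign, and 15 of the values not called changed it. The calls lost to a single library were of small changes: TP53BP1, FANCI, FANCL and BARD1 with sh2, LIG4 with sh1, EXO1 and TP53BP1 between the hairpins, and RAD51AP1 (0.15) and MRE11 (0.16) with sh2 without sh2 library 1. The replicate block on table numbers gave 26, 31 and 31 calls and changed none. Correlations of same-numbered tables, taken on deviations from the group mean, were -0.08 to 0.04. Counting noise pulls such values toward 0, so whether same-numbered tables share a culture or run cannot be told from them. With the tables summed there is 1 sample per group and no test, and the signs were those of the main values. Members with few counts, such as OGG1, MUTYH and LIG4, had the widest errors.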
